A study of Mus musculus with 14 samples.

Results

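The chemokines and their receptors, without Cxcl12 and its receptor Cxcr4, were described in osteoblasts and endothelial cells sorted from mouse marrow, with and without granulocyte colony-stimulating factor (G-CSF). Members are the genes whose symbol on the array's probe table marks them as a CC, CXC, CX3C or XC chemokine or as a receptor of these classes. There were 48 such genes among the 18193 genes named by the array, and the probe set with the highest mean over the 14 arrays stood for each gene. Of the 48 members, 28 passed the filter on dim probe sets and were tested, and 20 did not pass it. All levels are log2 of the deposited intensity plus 16, so a difference of 1 means a doubling, and differences of dim genes are understated. Levels of different probe sets cannot be set against each other.

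Chemokines are small secreted proteins that bind to receptors coupled to G proteins and direct the movement of leukocytes. In the marrow they set which blood cells are held and which are released: ligands of CXCR2 draw neutrophils out, whereas Cxcl12 retains them. G-CSF is the cytokine that drives neutrophil production and mobilises neutrophils and stem cells into the blood. Ligands of CXCR3 are induced by interferon and attract activated T cells and NK cells, and ligands of CCR1 and CCR2 attract monocytes and other myeloid cells.

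All mice carried the pOBcol2.3-GFP transgene, in which a fragment of the type I collagen promoter drives GFP, on the C57BL/6J strain, with a genotype labelled wild type and an age of 6 to 8 weeks. Osteoblasts were sorted as CD45- ter119- CD31- GFP+ cells and endothelial cells as CD45- ter119- GFP- CD31+ cells after collagenase digestion. There were 3 arrays of untreated osteoblasts, 3 of osteoblasts after G-CSF, 4 of untreated endothelial cells and 4 of endothelial cells after G-CSF. G-CSF was given under the skin at 250 ug/kg, and the titles of those arrays state 5 days, but the protocol given with the untreated ones states 7. The labels do not say that replicates came from separate mice, so p-values measure only the spread between these samples.

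The sorts differed as labelled in their own markers: all 9 endothelial genes were lower in osteoblasts in both treatments, and all 5 osteoblast genes were higher there after G-CSF but 1 of 5 before it. Genes of blood cells were bright in both sorts, although both gates removed CD45+ cells. The summed intensity of 6 leukocyte genes (Ptprc, Itgb2, Coro1a, Laptm5, Cd53 and Lcp1) ran from 4345 to 45775 in untreated osteoblasts, from 23817 to 59788 in osteoblasts after G-CSF, from 12128 to 23130 in untreated endothelial cells and from 24574 to 49171 in endothelial cells after G-CSF. None of the 6 was called after G-CSF in either sort. At an unadjusted p under 0.05, 6 were higher in osteoblasts and 3 in endothelial cells (limma). In the average of the changes in both sorts, a contrast added after the data were seen, 1 of the 6 was called as higher. All 6 were higher in that average at an unadjusted p under 0.05 (limma). Untreated osteoblast replicate 2 stood apart, with a mean log2 of 12.62 for these genes against 9.40 and 9.36 in the other arrays of its group, and untreated endothelial replicate 1 stood apart by skeletal muscle genes, at a mean of 13.65. In sorted bulk samples, fewer cells of a type and less RNA per cell cannot be told apart.

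After G-CSF the CXCR3 ligand Cxcl9 was lower, and the receptors Cxcr2 and Ccr1 and the CXCR2 ligand Cxcl3 read higher, in both sorts. In osteoblasts 0 of the 28 members tested passed limma at an adjusted p under 0.05, where 0.23% of all genes tested did, and 6 passed at an unadjusted p under 0.05 (8.85% of all genes). In endothelial cells 1 member passed, Cxcl9, which was lower, where 1.6% of all genes passed and 1.14% as lower, and 7 passed at an unadjusted p under 0.05 (13.1% of all genes). The groups did not overlap for 3 of the 28 members in osteoblasts, against 9.29% of all genes tested, and for 7 in endothelial cells, against 10.3%. The median change of the 28 was 0.19 in osteoblasts and -0.07 in endothelial cells, and that of all genes was -0.04 and -0.05. The difference between the changes in the sorts was called for 0 members and 0% of all genes, and 1 member, Cxcl13, had an unadjusted p under 0.05 (4.62% of all genes). The average of the changes in both sorts, a contrast added after the data were seen, was called for 4 members: Cxcl9 fell, and Cxcr2, Ccr1 and Cxcl3 rose (2.78% of all genes were called, 1.46% as higher and 1.32% as lower). Centring each array on its median would add 0.03 to each change in osteoblasts and 0.18 to each change in endothelial cells on the log2 scale.

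**Figure D1:**
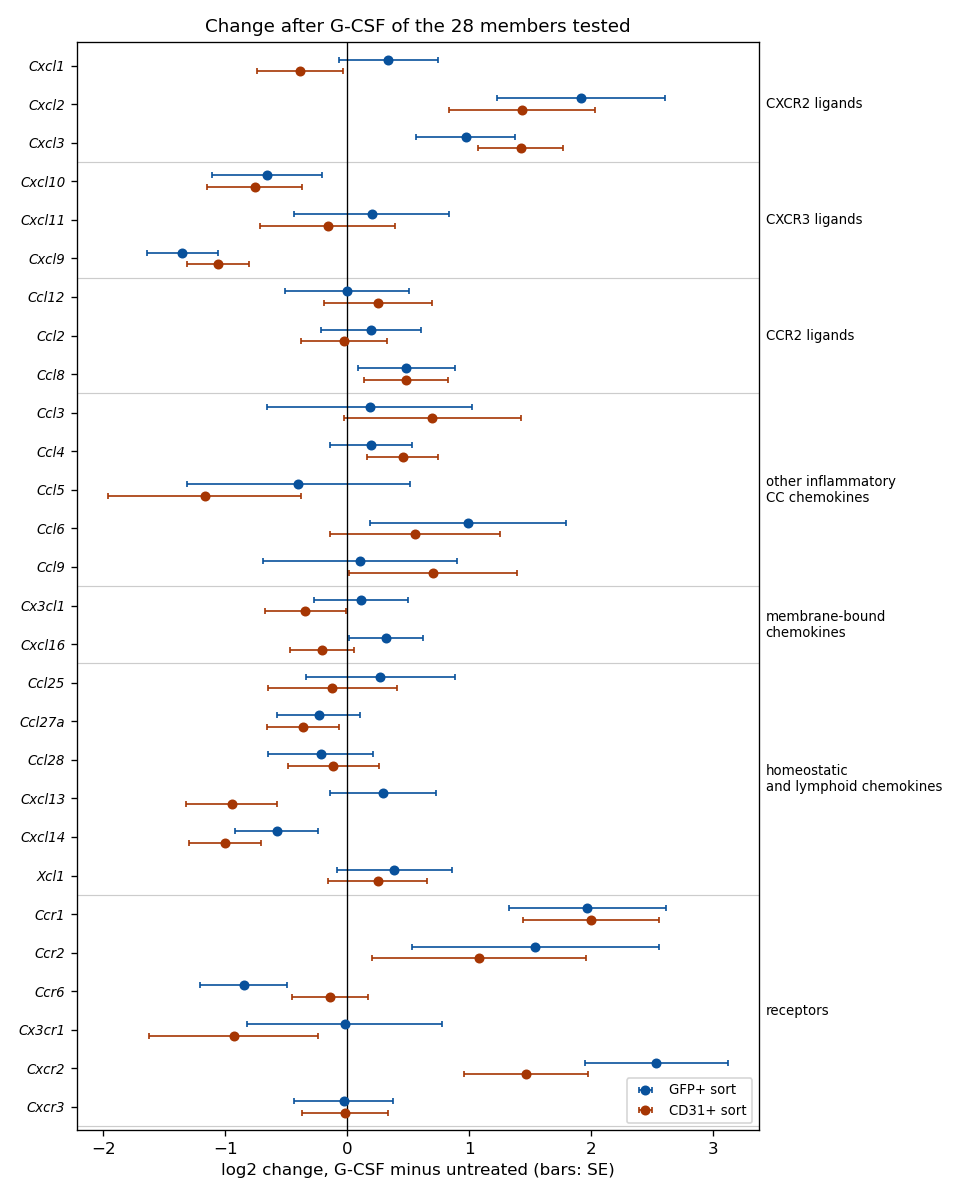
The log2 change after G-CSF (x axis, G-CSF minus untreated) of the 28 chemokines and receptors that passed the filter (y axis, grouped by role), in the GFP+ osteoblast sort (blue) and the CD31+ endothelial sort (brown), with standard errors from the limma fit as bars. Cxcr2, Ccr1, Cxcl2 and Cxcl3 lie right of 0 and Cxcl9, Cxcl10 and Cxcl14 left of 0 in both sorts, and most other bars cross 0 or lie near it.

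The clearest fall was that of Cxcl9, an interferon-induced ligand of CXCR3. In osteoblasts it read 9.31, 8.57 and 9.17 untreated and 7.60, 7.53 and 7.87 after G-CSF. All 3 treated arrays lay below all 3 untreated ones. The change was -1.35 ± 0.29 (SE), 2.55-fold lower, and it missed the threshold (adjusted p = 0.0816, limma). Without untreated osteoblast replicate 2 the change was -1.58 with an adjusted p of 0.00687. Cxcl9 passed in only that 1 of 6 limma fits without 1 osteoblast array, and its highest adjusted p was 0.274. In endothelial cells Cxcl9 read 9.46, 9.48, 10.27 and 9.38 untreated and 9.06, 8.67, 8.40 and 8.22 after G-CSF, again without overlap. It fell by 1.06 ± 0.25 (SE), 2.08-fold, with an adjusted p of 0.0496 in limma. That call sat at the threshold and was lost without untreated replicate 1, 3 or 4 or G-CSF replicate 2, 3 or 4 of the endothelial arrays, with a highest adjusted p of 0.171. Over both sorts the average change was -1.21 ± 0.19 (SE), 2.31-fold lower (adjusted p = 0.00556, limma), and it was called under each of the 25 alternative settings run, with a highest adjusted p of 0.0191. The second probe set of Cxcl9 differed by -0.93 in osteoblasts and by -0.82 in endothelial cells.

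Cxcl10, another CXCR3 ligand, did not pass the test. It read 9.39, 7.79 and 8.90 in untreated osteoblasts and 8.16, 7.35 and 8.61 after G-CSF, and 9.15, 8.85, 10.40 and 9.83 in untreated endothelial cells against 9.17, 8.40, 8.69 and 8.94 after G-CSF. The groups overlapped in both sorts. The changes were -0.66 ± 0.45 (SE) and -0.76 ± 0.39 (SE), and the average of both had an adjusted p of 0.248 in limma. Cxcl11, the third ligand of CXCR3, was dim, between 4.58 and 7.23 in every array, and its changes of 0.20 and -0.16 had intervals from -1.16 to 1.56 and from -1.34 to 1.02. B lineage genes, 7 in number, had a median change of -1.43 in osteoblasts and -2.00 in endothelial cells. In endothelial cells 5 of them were lower at an unadjusted p under 0.05 and none was called. In the average of both changes 1 of the 7 was called as lower, and 6 were lower at an unadjusted p under 0.05 (limma). Of the 9 T and NK cell genes, whose cells carry CXCR3, Cd3e, Cd3g, Cd3d, Cd4 and Ncr1 were below the filter, and the 4 tested had median changes of -0.18 and -0.28. The part of these cells in the Cxcl9 result was not tested.

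**Figure D2:**
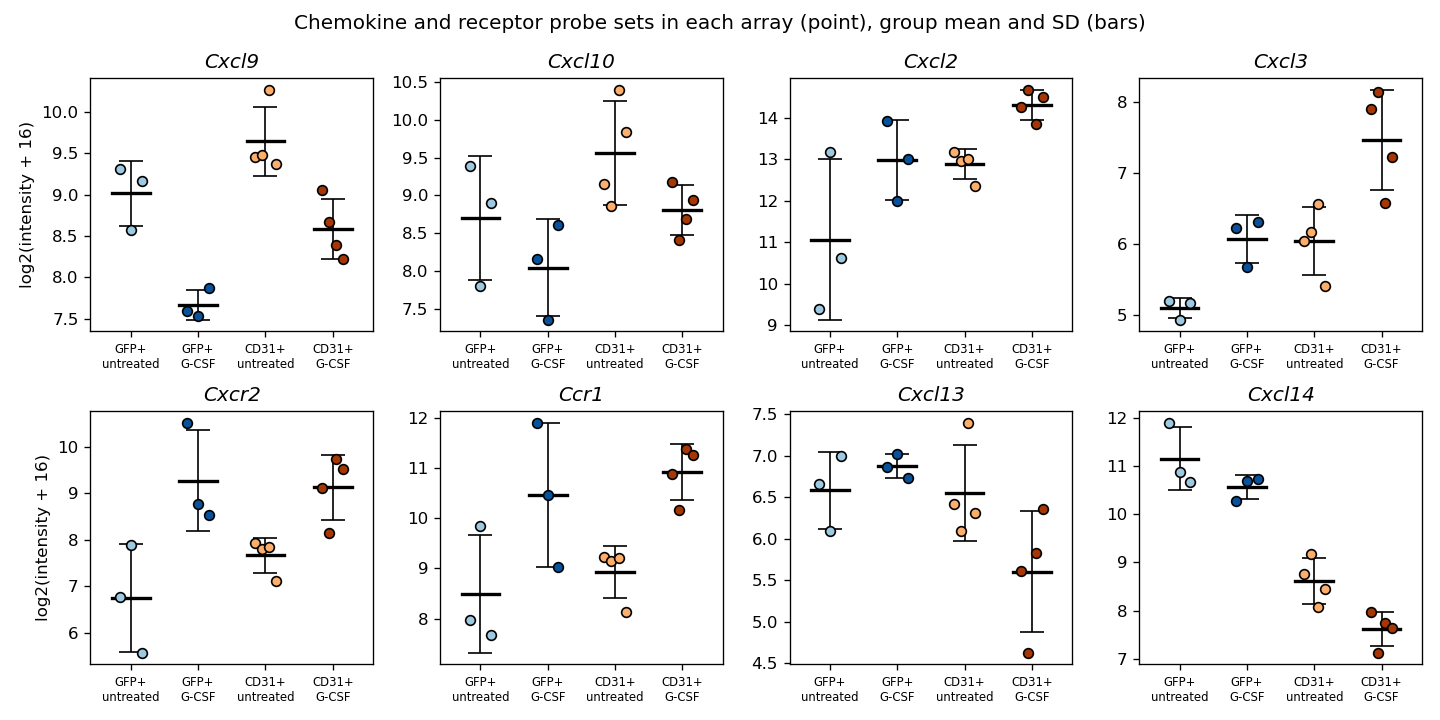
Log2 of intensity plus 16 (y axis, scaled for each gene) of 8 chemokines and receptors in each array (points) of the 4 groups (x axis), with group means and standard deviations as black bars. For Cxcl9 the treated arrays lie below the untreated ones in both sorts, for Cxcr2 and Cxcl3 above them, and Cxcl14 is higher in every GFP+ array than in every CD31+ array.

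Of the CXCR2 ligands, Cxcl1, Cxcl2 and Cxcl3 share a neighbourhood and a short promoter sequence. They lie with Cxcl15 on chromosome 5, which also holds Cxcl9, Cxcl10 and Cxcl13 among the 9 members located there in RefSeq GRCm38.p6. NF-kB is the transcription factor known to induce many of these genes in inflammation. Promoters, taken as the 250 bases before the start of transcription, were listed for 35 of the 48 members. They were searched on both strands for the NF-kB motif GGANTTNCC, which 3.15% of all 32851 promoters of that length held and which stood in those of 7 members (Ccr3, Ccr6, Cxcl1, Cxcl2, Cxcl3, Cxcl10 and Cxcr2). The promoters of the CXCR2 ligands and of 2 CXCR3 ligands are shown to compare members that lie near each other on the chromosome, with the match in capitals. They run 5′ to 3′ on the strand of the gene, from chr5:90890995-90891244, chr5:90903649-90903898 and chr5:90785851-90786100 on the plus strand for Cxcl1, Cxcl2 and Cxcl3, and from chr5:92348890-92349139 and chr5:92328080-92328329 on the minus strand for Cxcl10 and Cxcl9.
Cxcl1: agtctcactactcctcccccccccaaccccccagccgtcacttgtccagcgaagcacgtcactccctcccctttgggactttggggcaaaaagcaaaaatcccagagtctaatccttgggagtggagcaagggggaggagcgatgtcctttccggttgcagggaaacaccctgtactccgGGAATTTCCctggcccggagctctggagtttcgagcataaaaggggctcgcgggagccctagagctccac
Cxcl2: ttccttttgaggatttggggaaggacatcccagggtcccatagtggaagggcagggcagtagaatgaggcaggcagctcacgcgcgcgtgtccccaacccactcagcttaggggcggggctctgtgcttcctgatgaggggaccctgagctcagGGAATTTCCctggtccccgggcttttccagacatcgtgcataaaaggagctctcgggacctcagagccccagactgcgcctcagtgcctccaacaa
Cxcl3: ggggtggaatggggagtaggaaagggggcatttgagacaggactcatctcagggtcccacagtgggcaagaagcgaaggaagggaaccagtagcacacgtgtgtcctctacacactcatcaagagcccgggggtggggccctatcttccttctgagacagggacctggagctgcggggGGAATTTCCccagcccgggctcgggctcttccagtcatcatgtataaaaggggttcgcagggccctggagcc
Cxcl10: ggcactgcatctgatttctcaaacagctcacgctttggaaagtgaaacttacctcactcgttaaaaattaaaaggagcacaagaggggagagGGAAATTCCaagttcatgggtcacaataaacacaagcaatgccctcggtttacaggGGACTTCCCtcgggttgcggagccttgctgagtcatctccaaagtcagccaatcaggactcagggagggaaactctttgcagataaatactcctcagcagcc
Cxcl9: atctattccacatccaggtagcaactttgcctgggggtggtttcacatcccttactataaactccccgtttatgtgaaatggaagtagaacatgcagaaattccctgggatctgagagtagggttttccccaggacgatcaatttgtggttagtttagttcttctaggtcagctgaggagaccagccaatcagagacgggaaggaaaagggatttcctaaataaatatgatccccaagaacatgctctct
The match read GGAATTTCC in Cxcl1, Cxcl2 and Cxcl3, ending 62, 88 and 64 bases before the start. Cxcl10 held 2 matches, ending 150 and 94 bases before the start, the first of them on the other strand. These letters were not in the window of Cxcl9. The interferon response motif GAAANNGAA was in the windows of Cxcl9, Cxcl10, Cxcl14, Ccl1, Ccl3 and Ccr2 (7.13% of all promoters), and the STAT motif TTCNNNGAA, which reads as its own form on the other strand, in those of Cxcl14, Ccr6, Ccl17 and Ccr1l1 (7.02%). The motifs searched do not overlap in the sequences printed.

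The 3 CXCR2 ligands tested are those with the same NF-kB letters, and their changes after G-CSF were not tested against each other. Cxcl2, which attracts neutrophils, read 9.38, 13.18 and 10.62 in untreated osteoblasts and 13.93, 11.99 and 13.00 after G-CSF. The groups overlapped, and the 13.18 was that of untreated replicate 2, the array with the high leukocyte genes. The change was 1.91 ± 0.69 (SE) with an adjusted p of 0.376 in limma, and without that array it was 2.97 with an adjusted p of 0.00181. Cxcl2 passed in only that 1 of 6 fits without 1 osteoblast array. Its highest adjusted p was 0.671, without untreated replicate 1, where the change was 1.08. In endothelial cells Cxcl2 read 13.18, 12.96, 13.01 and 12.36 untreated and 14.26, 14.66, 13.84 and 14.49 after G-CSF, without overlap. That change of 1.44 ± 0.60 (SE) had an adjusted p of 0.294.

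Cxcl3, which also attracts neutrophils, was higher without overlap in both sorts. Its group means were 5.09 untreated and 6.07 after G-CSF in osteoblasts, and 6.04 and 7.46 in endothelial cells, against a filter cut of 5.78. Its pass leaned on the endothelial arrays after G-CSF, where it was brightest, so its place among the members tested was not independent of its change. It read 5.19, 4.92 and 5.17 in untreated osteoblasts and 6.22, 5.68 and 6.30 after G-CSF, a change of 0.97 ± 0.41 (SE) with an adjusted p of 0.476 in limma. In endothelial cells it read 6.04, 6.16, 6.55 and 5.40 untreated and 7.91, 8.14, 6.58 and 7.22 after G-CSF, a change of 1.42 ± 0.35 (SE) with an adjusted p of 0.0572. The labels do not say that replicate numbers pair the arrays. In an alternative limma fit that took the replicate number as a block, the endothelial count of called members went from 1 to 3. The adjusted p-values were then 0.0338 for Cxcl9, 0.0488 for Cxcl3 and 0.0449 for Ccr1, and they hold only if that pairing is real. The average change of Cxcl3 over both sorts was 1.20 ± 0.27 (SE), 2.29-fold, with an adjusted p of 0.0291 in limma. It was lost without osteoblast untreated replicate 1 or 3, osteoblast G-CSF replicate 1 or 3, endothelial untreated replicate 1 or 4 or endothelial G-CSF replicate 1 or 2, with a highest adjusted p of 0.0718.

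Cxcl1, also a neutrophil attractant, had changes near 0 of opposite sign in the sorts, and neither was called. It read 12.77, 11.75 and 12.26 in untreated osteoblasts and 12.29, 12.32 and 13.17 after G-CSF, and 12.74, 12.38, 13.13 and 13.10 in untreated endothelial cells against 13.37, 12.40, 11.45 and 12.58 after G-CSF. All of these groups overlapped. The changes were 0.34 with a 95% interval from -0.53 to 1.20 in osteoblasts and -0.39 with an interval from -1.14 to 0.36 in endothelial cells. Cxcl5 and Cxcl15, the other CXCR2 ligands of the rule, were below the filter.

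Of the CCR2 ligands, which draw monocytes out of the marrow, none was called after G-CSF. Ccl2 read 7.39, 6.53 and 6.46 in untreated osteoblasts and 7.00, 6.68 and 7.29 after G-CSF. It read 6.62, 7.01, 7.70 and 6.43 in untreated endothelial cells and 7.73, 6.88, 6.75 and 6.29 after G-CSF. Its groups overlapped throughout, and its changes were 0.20 (95% interval from -0.68 to 1.07) and -0.03 (from -0.78 to 0.73). Ccl8 read 6.25, 7.20 and 6.20 in untreated osteoblasts and 6.98, 7.72 and 6.40 after G-CSF, with changes of 0.48 ± 0.40 (SE) there and 0.48 ± 0.35 (SE) in endothelial cells. Ccl12 had changes of 0.00 and 0.25, and Ccl7 was below the filter.

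The 5 other inflammatory CC chemokines tested, Ccl3, Ccl4, Ccl5, Ccl6 and Ccl9, which attract myeloid cells and T cells, had wide spreads, and none was called. In untreated osteoblasts each of them was highest in replicate 2, the array with the highest leukocyte genes of its group. Ccl6 read 7.77, 11.31 and 7.56 there and 11.15, 10.09 and 8.36 after G-CSF. Ccl9 read 8.21, 12.28 and 7.97 untreated and 9.16, 10.14 and 9.48 after G-CSF. Without replicate 2 both were called as higher after G-CSF, together with Ccr1, Cxcr2 and Cxcl2, which made 5 members higher, against 3.17% of all genes, and 1 lower, against 0.364%.

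Ccl3 read 5.35, 9.56 and 6.49 in untreated osteoblasts and 8.21, 7.05 and 6.70 after G-CSF, and Ccl5 read 4.31, 8.10 and 4.50 against 4.22, 6.79 and 4.70. Ccl4 was steadier, with 7.72, 8.56 and 7.37 against 8.06, 7.75 and 8.41. In endothelial cells after G-CSF, Ccl3 read 9.62, 8.50, 8.71 and 11.05, Ccl4 8.31, 8.32, 8.29 and 9.33, and Ccl9 10.05, 9.67, 9.93 and 11.20. All 3 were highest in replicate 4, whose eosinophil and mast cell genes had a mean log2 of 10.49, against 7.15 to 7.44 in the other treated endothelial arrays. It also had the highest mean of its group for leukocyte genes, 12.86 against 11.79 to 12.63, and for neutrophil genes, 14.23 against 13.52 to 13.91. Its monocyte and macrophage genes had the highest sum, 42898, and a mean of 10.36, below the 10.40 of replicate 3. The part of those cells in these values was not tested. Ccl5 read lower after G-CSF in endothelial cells, from 7.31, 7.19, 6.46 and 5.81 to 6.18, 4.79, 4.59 and 6.54, a change of -1.17 ± 0.79 (SE) that did not pass. Its group means were 5.64 and 5.24 in untreated and treated osteoblasts and 6.69 and 5.52 in endothelial cells, against a filter cut of 5.78. It thus passed the filter only through the untreated endothelial arrays, where it was high.

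Cxcl14 and Cxcl13 lead the homeostatic chemokines, those made without inflammation. Cxcl14, a chemokine of epithelia and stroma, read 8.76, 9.18, 8.07 and 8.45 in untreated endothelial cells and 7.96, 7.12, 7.74 and 7.63 after G-CSF, without overlap. The 95% interval of the change ran from -1.63 to -0.38, with an adjusted p of 0.105 in limma. In osteoblasts it read 11.89, 10.87 and 10.68 untreated and 10.28, 10.69 and 10.74 after G-CSF, which overlapped, a change of -0.58 ± 0.34 (SE). Osteoblast genes in the endothelial sort also read lower: 4 of 5 were lower at an unadjusted p under 0.05, 1 of them called, with summed intensities of 39155 to 86226 untreated and 5168 to 50383 after G-CSF. The 7 reticular stromal genes there ran from 28780 to 34539 untreated and from 15643 to 28430 after G-CSF, with 2 called as lower. The part of such cells in the Cxcl14 values was not tested.

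Cxcl13, the attractant of B cells, read 6.42, 6.09, 7.39 and 6.31 in untreated endothelial cells and 5.62, 4.63, 5.83 and 6.36 after G-CSF, and these overlapped. In osteoblasts it read 6.66, 6.09 and 7.00 untreated and 6.86, 7.02 and 6.74 after G-CSF. The changes of -0.95 ± 0.38 (SE) and 0.29 ± 0.43 (SE) differed by 1.24, with a 95% interval from 0.01 to 2.46, an unadjusted p of 0.0477 and an adjusted p of 1.00 in limma. The second probe set of Cxcl13 gave a difference of 0.58. The other homeostatic members tested, Ccl25, Ccl27a, Ccl28 and Xcl1, changed by between -0.37 and 0.39 in the 2 sorts. The probe sets of Ccl25 disagreed in osteoblasts, where the one used changed by 0.27 and a second one that passed the filter by -0.88.

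The membrane-bound chemokines Cx3cl1, which tethers monocytes to endothelium, and Cxcl16 were not called in either sort. Cx3cl1 read 8.48, 8.55 and 8.24 in untreated osteoblasts and 7.90, 8.73 and 8.98 after G-CSF, and 8.85, 9.93, 8.83 and 8.65 in untreated endothelial cells against 9.08, 9.24, 7.97 and 8.60. Cxcl16 read 7.79, 7.73 and 7.24 against 7.67, 8.29 and 7.75 in osteoblasts, and its treated endothelial arrays, 8.25, 8.20, 8.19 and 7.91, lay within the range of the untreated ones. All 4 comparisons overlapped, and the 95% intervals of the changes lay between -1.05 and 0.97.

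Among the receptors, Cxcr2, which neutrophils carry and through which they answer Cxcl1 and Cxcl2, was higher after G-CSF without overlap in both sorts. It read 6.78, 7.90 and 5.56 in untreated osteoblasts and 10.52, 8.77 and 8.54 after G-CSF. The change was 2.53 ± 0.59 (SE), 5.79-fold, with an adjusted p of 0.110 in limma. Without untreated replicate 2 it was 3.11 with an adjusted p of 0.00539. Cxcr2 passed in only that 1 of 6 fits without 1 osteoblast array, and its highest adjusted p was 0.348. In endothelial cells it read 7.93, 7.79, 7.84 and 7.10 untreated and 9.12, 8.15, 9.73 and 9.53 after G-CSF, a change of 1.47 ± 0.51 (SE) with an adjusted p of 0.177. The average of both changes was 2.00 ± 0.39 (SE), 4.01-fold, with an adjusted p of 0.0154, and it was called under each of the 25 alternative settings run, with a highest adjusted p of 0.0398.

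Ccr1, a receptor of myeloid cells for Ccl3, Ccl6 and Ccl9, had changes of like size. It read 7.96, 9.85 and 7.67 in untreated osteoblasts and 11.91, 10.46 and 9.02 after G-CSF, where the lowest treated array lay under untreated replicate 2. The change was 1.97 ± 0.64 (SE) with an adjusted p of 0.312 in limma, and without that replicate it was 2.64 with an adjusted p of 0.0235. Ccr1 passed in only that 1 of 6 fits without 1 osteoblast array, and its highest adjusted p was 0.597. In endothelial cells it read 9.22, 9.14, 9.20 and 8.14 untreated and 10.88, 10.16, 11.39 and 11.26 after G-CSF, without overlap, a change of 2.00 ± 0.56 (SE) with an adjusted p of 0.0879. The average change of 1.98 ± 0.43 (SE) had an adjusted p of 0.0245. It was lost without osteoblast untreated replicate 1 or 3, osteoblast G-CSF replicate 1 or 2, or endothelial untreated replicate 4, with a highest adjusted p of 0.0696. A second probe set of Ccr1 changed by 2.25 and 2.24.

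Genes of leukocytes read higher after G-CSF beside Cxcr2 and Ccr1. The 6 leukocyte genes had median changes of 1.95 in osteoblasts and 1.16 in endothelial cells, and the 9 neutrophil genes of 1.60 and 0.59. Their mean log2 was lowest, 9.36 to 9.40, in untreated osteoblast replicates 1 and 3, where both receptors were also low, and highest, 13.19, in G-CSF osteoblast replicate 1, where both were highest. Neutrophil genes summed to between 44254 and 267855 in untreated osteoblasts, 182408 and 254503 in osteoblasts after G-CSF, 115779 and 184437 in untreated endothelial cells and 157081 and 218984 in endothelial cells after G-CSF. The 10 monocyte and macrophage genes had median changes of 0.96 and 0.50, with sums of 4873 to 53841, 13624 to 36801, 11382 to 26558 and 23734 to 42898 in the same order. In the average of both changes, the contrast in which Cxcr2 and Ccr1 were called, 1 gene of each of these 3 lists was called as higher. At an unadjusted p under 0.05, 6 of 6 leukocyte, 7 of 9 neutrophil and 3 of 10 monocyte and macrophage genes were higher there (limma). No array had any of these lists near 0, and their part in the receptor values was not tested. In untreated osteoblast replicate 2, whose leukocyte genes were as bright as in treated arrays, Cxcr2 read 7.90, below the 8.54 to 10.52 of treated osteoblasts, and Cxcl9 read 8.57, above their 7.53 to 7.87. In the same array Ccr1 read 9.85, inside the 9.02 to 11.91 of treated osteoblasts, and Cxcl2 read 13.18, inside their 11.99 to 13.93.

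**Figure D3:**
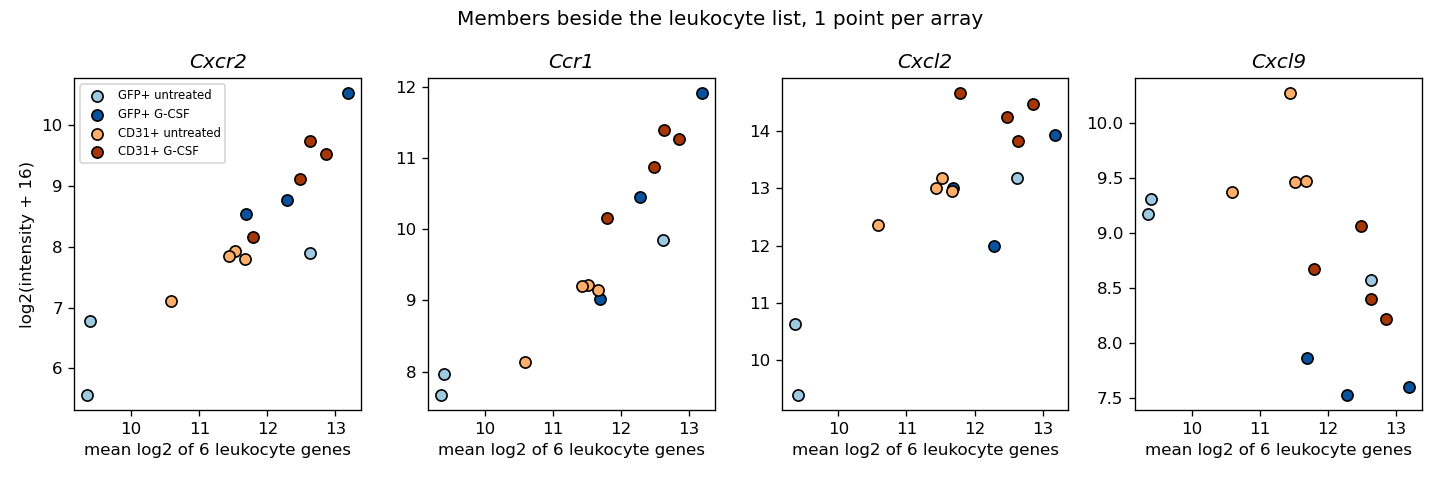
Log2 of intensity plus 16 of Cxcr2, Ccr1, Cxcl2 and Cxcl9 (y axes) against the mean log2 of 6 leukocyte genes (x axis), 1 point per array, coloured by group. Cxcr2 and Ccr1 are low where the leukocyte genes are low, at 9.36 and 9.40, and highest where they reach 13.19, whereas Cxcl9 is lower in the treated groups.

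The other receptors tested were not called. Ccr2, the receptor of classical monocytes, read 6.81, 11.01 and 7.20 in untreated osteoblasts and 9.35, 11.80 and 8.50 after G-CSF, with the high value in replicate 2 of each group. In endothelial cells it read 8.44, 8.40, 8.66 and 6.18 against 9.21, 8.01, 9.34 and 9.46. The 3 of its probe sets that passed the filter differed, with changes of 1.54, -0.06 and 1.15 in osteoblasts. Cx3cr1, the receptor of patrolling monocytes, read 6.50, 9.68 and 5.07 in untreated osteoblasts against 6.97, 7.26 and 6.97, and 7.05, 7.43, 8.04 and 6.57 in untreated endothelial cells against 6.08, 5.75, 6.74 and 6.80. Cxcr3, the receptor of Cxcl9 and Cxcl10, changed by -0.03 and -0.01 with intervals from -0.89 to 0.84 and from -0.77 to 0.74. Ccr6 read 6.29, 5.65 and 6.54 in untreated osteoblasts and 5.83, 5.46 and 4.65 after G-CSF, which overlapped, a change of -0.85 with an adjusted p of 0.489 in limma.

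Between the sorts, Cxcl14 was the member with the largest difference: it was higher in osteoblasts than in endothelial cells in every array. Untreated, the difference was 2.53 ± 0.32 (SE), 5.78-fold, with an adjusted p of 3.46e-05 in limma, and after G-CSF it was 2.95 ± 0.32 (SE), 7.75-fold, with an adjusted p of 5.54e-06. Both were called under every alternative setting run, and the second probe set gave 2.93 after G-CSF. Untreated, 2 of the 28 members were called, 1 higher and 1 lower in osteoblasts, where 26.4% of all genes were, 13.6% as higher and 12.8% as lower, and 23 of the 28 read lower in osteoblasts, whatever the test, against 49.9% of all genes. The groups of 4 members did not overlap, against 32.6% of all genes. The lower member was Cxcl2, at -1.82 ± 0.64 (SE) with an adjusted p of 0.0498, which was lost in 13 of 19 settings. Its untreated osteoblast arrays of 9.38 and 10.62 lay below all endothelial ones and the 13.18 of replicate 2 did not. Without replicate 2 the difference was -2.87 with an adjusted p of 0.000191, and 8 members were called in place of 2. Of these, Cxcl14 was higher in osteoblasts, where 16.3% of all genes were called as higher without that array, and Cxcl2, Cxcr2, Ccl3, Ccl5, Ccl6, Ccl9 and Cx3cr1 were lower, where 17.5% were. Ccl5 passed the filter only through untreated endothelial cells, so its call is no independent support. Leukocyte, neutrophil and monocyte genes also read lower in untreated osteoblasts, by medians of -1.09, -0.84 and -0.56 over all arrays, none called. Leukocyte genes had a mean log2 of 9.40 and 9.36 in the osteoblast arrays left, against 10.58 to 11.67 in untreated endothelial arrays. The part of such cells was not tested.

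After G-CSF, 6 of the 28 members differed between the sorts, where 31.9% of all genes did, 17.5% as higher and 14.4% as lower in osteoblasts, and 7 did not overlap, against 39.4%. Lower values in osteoblasts were then read for 18 of the 28, against 48.8% of all genes. Cxcl14 and Cxcl13 were higher in osteoblasts, and Cxcl3, Cxcl9, Ccl12 and Ccl3 were higher in endothelial cells. Cxcl13 differed by 1.27 ± 0.41 (SE) with an adjusted p of 0.0263 in limma, its second probe set by 1.69, and all 3 osteoblast arrays lay above all 4 endothelial ones. Cxcl3 differed by -1.40 ± 0.38 (SE) with an adjusted p of 0.0107, and Cxcl9 by -0.92 ± 0.27 (SE) with an adjusted p of 0.0175, both without overlap. The pass of Cxcl3 through the filter leaned on the treated endothelial arrays, so its call is no independent support for that difference. The second probe set of Cxcl9 differed by only -0.34, and over the mean of its probe sets the call was lost (adjusted p = 0.0674, limma). Ccl12, a ligand of CCR2 just above the filter, read 4.16, 5.95 and 4.81 in osteoblasts and 6.87, 5.94, 6.99 and 6.30 in endothelial cells, a difference of -1.55 ± 0.48 (SE) with an adjusted p of 0.0215. Its group means were 4.97 in untreated and treated osteoblasts and 6.27 and 6.52 in endothelial cells, against a cut of 5.78. It thus passed the filter only through the sort where it was high, and its call is no independent support for that difference. Ccl3 differed by -2.15 ± 0.79 (SE) with an adjusted p of 0.0487.

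Leaving out 1 array ended each of these calls except that of Cxcl14. The call of Cxcl13 was lost without osteoblast G-CSF replicate 1, 2 or 3 or endothelial G-CSF replicate 2, that of Ccl12 without osteoblast G-CSF replicate 1 or 3 or endothelial G-CSF replicate 1 or 3, and that of Ccl3 without osteoblast G-CSF replicate 2 or 3 or endothelial G-CSF replicate 1 or 4. Cxcl3 was lost without osteoblast G-CSF replicate 2, and Cxcl9 without that array or endothelial G-CSF replicate 1. Centring each array on its median, which shifts these differences by -0.23 untreated and by -0.39 after G-CSF, gave 1 member higher and 5 lower in osteoblasts untreated, and 1 higher and 8 lower after G-CSF. The shift is the same for every gene, and these counts are not set against the share of all genes called after centring.

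**Figure D4:**
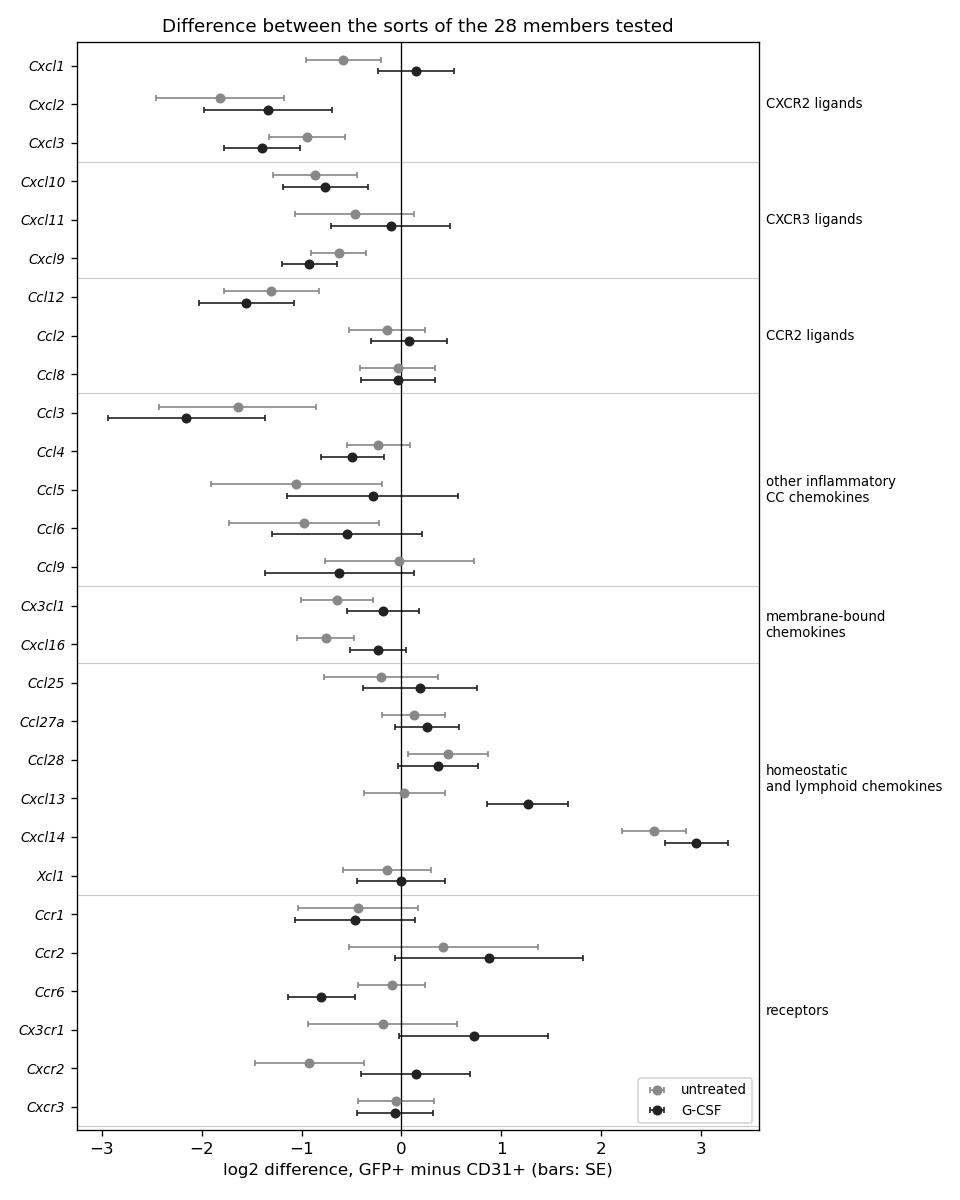
The log2 difference between the sorts (x axis, GFP+ osteoblasts minus CD31+ endothelial cells) of the 28 members tested (y axis, grouped by role), untreated (grey) and after G-CSF (black), with standard errors as bars. Cxcl14 lies near 2.53 and 2.95, alone at the right, and Cxcl2, Cxcl3, Cxcl9, Ccl12 and Ccl3 lie left of 0 in both.

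Chemokine genes and scavenging receptors that go by other names also differed between the sorts. Of 12 tested, 1 was called as higher and 5 as lower in untreated osteoblasts, where 13.6% and 12.8% of all genes were. After G-CSF 2 were called as higher and 5 as lower, against 17.5% and 14.4% of all genes. The median difference was -1.48 untreated and -1.38 after G-CSF, against 0.00 and 0.02 for all genes. Ackr1, the receptor of venular endothelium that carries chemokines without signalling, read 7.99, 9.67 and 8.49 in untreated osteoblasts and 12.61, 12.43, 13.21 and 13.05 in untreated endothelial cells. That difference of -4.10 ± 0.49 (SE) had an adjusted p of 2.26e-05 in limma. Ackr2, a scavenger of inflammatory CC chemokines, differed by -2.10 ± 0.42 (SE), and Ackr3, which takes up Cxcl12, by -1.55 ± 0.31 (SE) after G-CSF, with adjusted p-values of 0.00176 and 0.00125. Ackr4, a scavenger of the homeostatic CC chemokines, ran the other way: it read 10.39, 8.78 and 9.81 in untreated osteoblasts and 7.85, 5.58, 8.01 and 7.78 in untreated endothelial cells, a difference of 2.36 ± 0.63 (SE) with an adjusted p of 0.0122, and 0.40 with an adjusted p of 0.267 over the mean of its probe sets. Without osteoblast untreated replicate 1 the adjusted p for Ackr4 was 0.0666. Ppbp, a platelet chemokine for CXCR2, differed by -3.14 ± 0.93 (SE) with an adjusted p of 0.0208, while 5 megakaryocyte genes summed to between 837 and 1796 in untreated osteoblasts and between 1097 and 3868 in untreated endothelial cells, and their part in it was not tested. The call of Ppbp was lost without osteoblast untreated replicate 1 or 3 or endothelial untreated replicate 2, with a highest adjusted p of 0.104. After G-CSF 0 of the 12 were called in either sort, with 2 and 1 at an unadjusted p under 0.05 in limma.

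**Figure D5:**
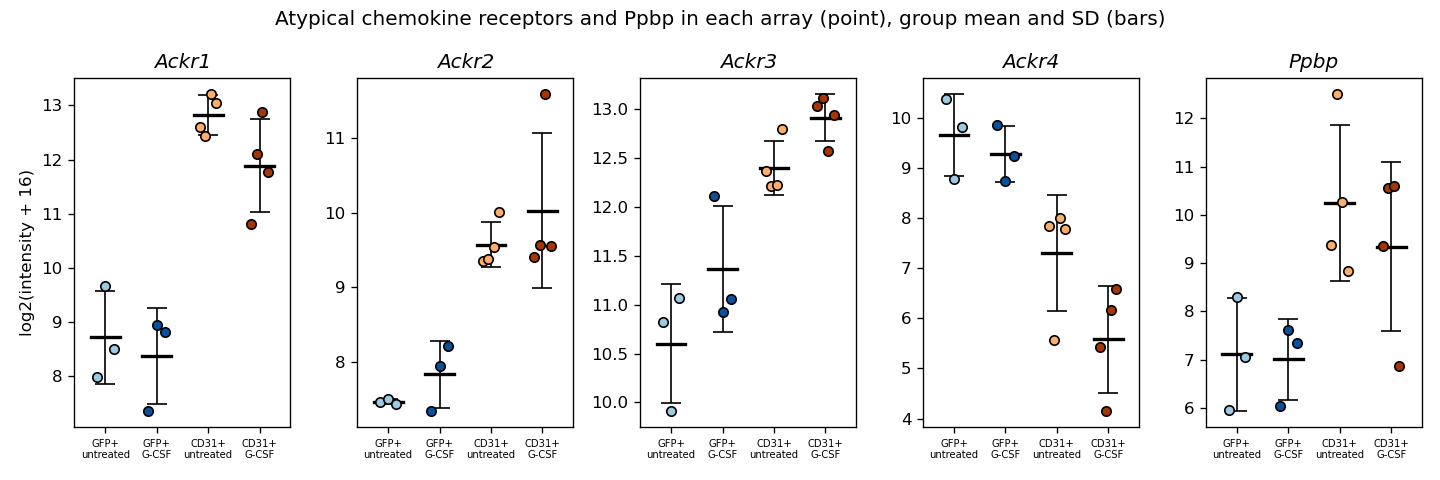
Log2 of intensity plus 16 (y axis, scaled for each gene) of Ackr1, Ackr2, Ackr3, Ackr4 and Ppbp in each array (points) of the 4 groups (x axis), with group means and standard deviations as black bars. Ackr1 and Ackr2 are higher in every CD31+ array than in any GFP+ array, and Ackr4 is higher in every GFP+ array than in any CD31+ array.

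Along the rest of the pathway, Myd88, the adaptor that carries interleukin-1 and Toll-like receptor signals to NF-kB, rose in both sorts. It read 10.86, 10.91 and 11.09 in untreated osteoblasts and 12.11, 11.81 and 11.67 after G-CSF, and 10.87, 10.85, 11.28 and 10.97 in untreated endothelial cells against 12.14, 12.09, 12.27 and 12.20. The groups did not overlap in either sort. The changes were 0.91 ± 0.18 (SE) with an adjusted p of 0.0498, lost in 12 of 18 settings, and 1.18 ± 0.15 (SE) with an adjusted p of 0.00170 in limma, lost in none of 20. It was the single called gene among 18 cytokine and NF-kB genes tested in each sort, whose median change was 0.61 in osteoblasts and 0.37 in endothelial cells. Of 19 genes of signalling below the receptors 0 were called in either sort, 4 in each were higher at an unadjusted p under 0.05, and in the average of both sorts Fgr, a kinase of myeloid cells, rose by 1.90 ± 0.38 (SE) with an adjusted p of 0.0172, lost without osteoblast untreated replicate 3 or osteoblast G-CSF replicate 1. Csf3r, the G-CSF receptor, rose by 1.77 ± 0.41 (SE) in that average with an adjusted p of 0.0329, and was lost in 9 of 25 settings. Between the untreated sorts, Gnai3 (0.61) was called as higher in osteoblasts (13.6% of all genes). Arrb1 (-2.04), Gnb1 (-1.36), Rac1 (-0.84), Tnf (-1.56), Relb (-1.11), Rela (-0.63) and Tnfrsf1a (-0.57) were called as lower (12.8%). After G-CSF, Arrb1 (-2.35), Rela (-1.05), Rac1 (-0.86), Relb (-0.78), Gnb1 (-0.76) and Tnfrsf1a (-0.58) were lower (14.4%) and Nfkb2 (0.86) higher (17.5%). Only Arrb1 was called under every setting both times. Over the mean of probe sets the calls of Gnai3 untreated and of Nfkb2 after G-CSF were lost, with adjusted p-values of 0.172 and 0.479 in limma.

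The 20 members below the filter had means over the 14 arrays of 4.40 to 5.65, and the highest single value among them was 7.42, for Ccr7. They were Cxcl5 and Cxcl15, the CCR2 ligand Ccl7, the eosinophil attractants Ccl11 and Ccl24, the homeostatic chemokines Ccl1, Ccl17, Ccl20, Ccl22 and Cxcl17, and the receptors Ccr1l1, Ccr3, Ccr4, Ccr7, Ccr8, Ccr9, Ccr10, Cxcr5, Cxcr6 and Xcr1. With no filter none of them was called after G-CSF in either sort. Ccl1, at -1.44 with an adjusted p of 0.0364 in limma, and Ccr9, at 1.09 with an adjusted p of 0.0305, then differed between osteoblasts and endothelial cells after G-CSF. The probe set used for Ccr9 was dim, with group means of 5.87 and 4.78 there. Its further probe sets, all below the filter, differed by 1.27, 0.18, 0.20 and 0.16.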

How the data were processed

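Total RNA (100 ng, per the labels) of sorted cells was hybridised to 14 Affymetrix arrays. The deposited intensity of each probe set is on a linear scale and was made by the authors with Affymetrix Expression Console 1.1, per the submitters' processing notes; the algorithm that summarised probes is not given in the sources used here. All arrays had a 2%-trimmed mean of 500.0, so values were not normalised again. Their log2 was taken here after adding 16 to the deposited intensity. Of 45101 probe sets, 64 controls, 932 with several symbols and 9160 with none were left out, and 34945 with 1 symbol stayed. Probe sets with a mean below 5.78, a fraction of 0.333, were dropped as dim, and the brightest remaining one stood for each of 13453 genes. The 48 members have 74 probe sets.

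The 14 arrays were fitted together with 1 mean for each of the 4 groups (limma 3.58.1, R 4.3.3, lmFit and eBayes with an intensity trend). All p-values are 2-sided, from this limma fit, with Benjamini-Hochberg adjustment over all genes tested, and called means an adjusted p under 0.05. The average of both G-CSF changes was added after the data were seen. The members, roles and lists were chosen with earlier results of these data known. Named members are those called or on a fixed list of key genes. Genes of the pathway lists are named if called, up to 4 a list and contrast. Cell type lists are given by counts, means and sums. Members at an unadjusted p under 0.05 are also named, a choice made after their values were seen.

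Array medians ran from 6.57 to 7.13 on the log2 scale, the 3′ to 5′ signal ratio of actin from 2.62 to 11.0 and that of GAPDH from 5.88 to 20.9, and correlations between arrays from 0.740 to 0.973. The number of arrays limits the precision. Deviations of same-numbered untreated and G-CSF arrays from their group means correlated at 0.223, 0.288 and 0.315 in osteoblasts and at 0.239, 0.377, 0.281 and 0.102 in endothelial cells, all above 0.1, so the replicate numbers in the titles were taken to pair the arrays in an alternative fit. Other alternatives were the pseudocount, the filter, the normalization, the probe set rule, the arrays fitted, the variance prior, array weights and leaving out arrays. Promoter sequences are from RefSeq (GRCm38.p6). The fit was also run on simulated data with independent noise between arrays. No simulated array stood apart as some do here, so that run does not bear on calls that hang on single arrays.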

Additional observations from a re-analysis of the deposited data

Results flagged for a closer look

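In 6 of 56 groups of 4 endothelial arrays, 1 array of a member stood far from the other 3 by Dixon's ratio, which chance does in about 1 of 20 groups. Of these, 3 were low values in untreated replicate 4: Ccr1 at 8.14 against 9.14 to 9.22, Ccr2 at 6.18 against 8.40 to 8.66, and Cxcr2 at 7.10 against 7.79 to 7.93. That array also had the lowest mean log2 of leukocyte genes in its group, 10.58 against 11.44 to 11.67. Cxcl9 was high in untreated replicate 3, at 10.27 against 9.38 to 9.48. Cx3cl1 was high in untreated replicate 2, at 9.93 against 8.65 to 8.85. Ccl4 was high in G-CSF replicate 4, at 9.33 against 8.29 to 8.32.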

How the results depend on the processing

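No member called, or at an unadjusted p under 0.05, turned its direction in that contrast under any alternative run. Of the remaining members tested, 13 of 22 turned under at least 1 alternative for the change in osteoblasts (largest change among them 0.40), 7 of 21 for that in endothelial cells (0.21), 14 of 22 between the untreated sorts (0.47) and 15 of 21 between the sorts after G-CSF (0.88), and none was called after turning. Centring turned the endothelial changes of Ccl2 to 0.15, Cxcr3 to 0.17 and Cxcl11 to 0.02, and the mean of probe sets turned Ccl25 in osteoblasts to -0.31. The count of called members after G-CSF was 0 in osteoblasts, 3 with array weights and 4 without the 2 arrays that stand apart, and leaving out 1 array in turn gave 0 to 6. In endothelial cells it was 1, it was 0 with a pseudocount of 1 or 64, with no filter, with quantile normalization and without the 2 arrays, 3 with the replicate block, 4 with only the arrays compared and 5 with array weights, and leaving out 1 array gave 0 to 1. Other single calls there were of another member: Cxcl3 after median centring or with no trend, Ccr1 with the mean of probe sets. The difference between the sorts' changes stayed at 0. Between untreated sorts it was 2, with 1 under no filter and with only the arrays compared, 5 with quantile normalization, 6 with centring and without the 2 arrays, 7 with array weights, and 1 to 8 leaving out 1 array. After G-CSF it was 6, 3 with a stricter filter on dim probe sets, 9 with centring (within the 1.5 times allowed), and 2 to 5 leaving out 1 array. For the average of both changes it was 4, 8 without the 2 arrays, and 2 to 10 leaving out 1 array, where 10 was without untreated osteoblast replicate 2. With the replicate block within a sort no other call changed among the members. A block shared by both sorts, whose pairing was not checked, lost Cxcl2 and gained Ccl12 and Cxcl16 untreated, with 3 called, and lost Ccl3 after G-CSF, with 5 called. The counts in this paragraph are not set against the share of all genes called under each setting, so they do not single out the members. The cause of these moves was not tested. Dim probe sets near the filter, such as Ccl12 at a mean of 5.79 against 5.78, are measured close to background, and no detection call was used.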
